A study of Mus musculus with 2 samples.

Results

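The genes described here are 46 mouse genes of tumour necrosis factor (TNF) and NF-kB signalling and of the inflammatory response they drive, out of 21521 protein-coding genes placed on the 19 autosomes and the X chromosome. They were taken by name from a list of cytokines, receptors, adaptors, NF-kB proteins and target genes, with the chemokine clusters left out, and placed at their RefSeq coordinates on the mm10 assembly. The list was drawn up with earlier results of these data known. All 46 matched a gene. They were set against chromatin loops and contact domains mapped by Hi-C, an assay that counts ligation products between DNA fragments lying close together in the nucleus. The cells were HPC5, a progenitor cell line derived from mouse bone marrow, carrying wild-type Etv6 (Etv6+/+), the gene of an ETS-family repressor. The 2 samples, replicates 1 and 2, form 1 group with no drug, cytokine or mutant arm named in the labels, so nothing here compares an inflammatory with a resting state. The labels do not say whether they were separate cultures, and differences between them may be technical. Both come from 1 cell line, and the lists hold contacts and no expression values, so the labelled cell type could not be checked against marker genes.

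TNF, interleukin 1 and ligands of Toll-like receptors bind receptors at the cell surface or in endosomes. Adaptor proteins then recruit kinases that mark the inhibitor IkB-alpha for destruction, and NF-kB dimers enter the nucleus. Their targets include cytokine genes, adhesion molecules and the genes of IkB-alpha and related inhibitors, which close a negative feedback loop. In blood progenitors the pathway is known for driving emergency production of myeloid cells.

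The authors listed loops separately for each replicate, at a high and a medium setting. Each loop is a pair of anchors, the 5, 10 or 25 kb bins it joins. The medium lists, used throughout unless stated, held 1276 loops in replicate 1 and 5729 in replicate 2, and the domain lists held 3 and 339 domains. The sequencing depth behind them is unknown, so a loop missing from the shorter list cannot be called absent from the cells. A gene counted as at an anchor when an anchor held one or both of its ends, and as enclosed when its whole body lay between the outer edges of a loop without an end in that loop's anchors. A loop counted as found in both replicates when the other list had a loop whose anchor midpoints were no more than 20 kb from its own.

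Of the 46 genes, 15 had an end in an anchor of either replicate, which is 32.6% (95% Clopper-Pearson interval 19.5 to 48.0%), against a background of 22.5% of all protein-coding genes. The background lies inside that interval. In replicate 1 there were 7 such genes (15.2%, background 6.67%) and in replicate 2 there were 11 (23.9%, background 19.8%). The genes at anchors of both replicates were Tlr4, Nfkbia and Hif1a. Those of replicate 1 alone were Il18, Cd44, Nfkbiz and Fos, and those of replicate 2 alone were Il6, Tlr1, Icam1, Tnfrsf1b, Il6ra, Bcl3, Socs3 and Nlrp3. At anchors of loops found in both replicates there were 5 genes (10.9%, background 5.83%): Il18, Cd44, Tlr4, Nfkbia and Fos. With any part of the gene body counted, 18 members met an anchor (39.1%, background 30.0%), Il1a, Il1r1 and Birc3 being the additions. The intervals cover counting error only and treat genes as independent, although some neighbouring members share loops.

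Of the 46 genes, 23 were enclosed by at least 1 loop, or 50% (34.9 to 65.1%), against 27.0% of all genes. In replicate 2 alone there were 22 (47.8%, background 26.6%) and in replicate 1 alone there were 5 (10.9%, background 5.92%), so the count rests on the longer list. In replicate 1 fewer members were enclosed than at an anchor. Loops found in both replicates enclosed 4 members, Il18, Cd44, Nfkbiz and Fos (8.7%, background 5.35%). In all, 29 members were at an anchor or enclosed (63.0%, background 42.9%). Whole inside a domain lay 8 members (17.4%, interval 7.82 to 31.4%), against a background of 3.98%, and all 8 of these domains came from replicate 2. Of the 8, Traf1 and Tlr9 were neither at an anchor nor enclosed. None of the 3 domains of replicate 1 touched a member, so the domain count has no second sample behind it. No domain edge cut a member, so with any overlap counted there were also 8 (background 5.51%). Members were shorter than the average gene, with a median length of 10.6 kb against 17.4 kb. They had a median of 9.5 protein-coding neighbours within 250 kb against 8. The 23 enclosed members had medians of 18.9 kb and 7 neighbours, and the 8 in domains had medians of 23.8 kb and 5.5 neighbours. Whether length or gene density bears on these shares was not tested. Since the genes were chosen with earlier results of these data known, an interval that leaves out the background is not a test.

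**Figure D1:**
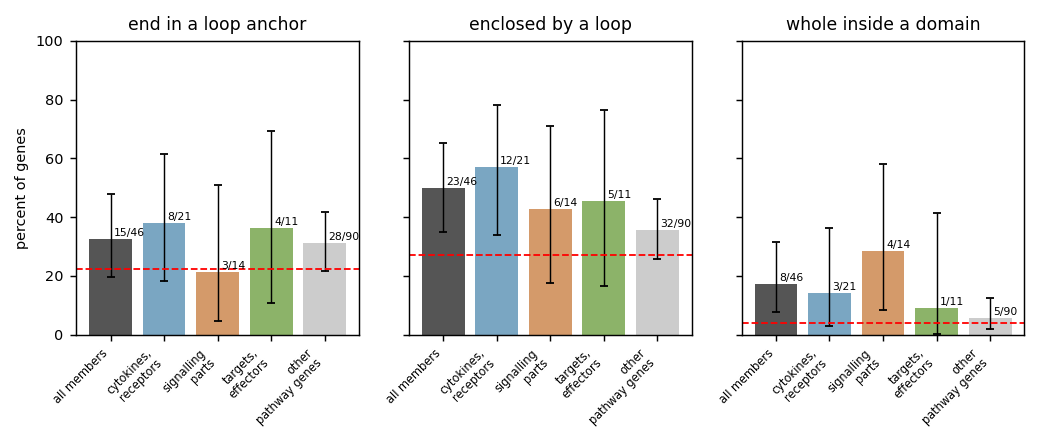
Percent of genes (bars, with 95% Clopper-Pearson intervals as black lines) with an end in a loop anchor, enclosed by a loop, or whole inside a domain, for all 46 members, for 3 role groups and for 90 other pathway genes. The counts stand beside the bars. The dashed red lines mark all protein-coding genes, at 22.5, 27.0 and 3.98%, and the enclosed bar of the cytokines and receptors, at 57.1%, stands farthest above its line.

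The cytokines and receptors were compared with the signalling parts, meaning the adaptors and the NF-kB proteins. Of 21 cytokine and receptor genes, 8 had an end in an anchor (38.1%, interval 18.1 to 61.6%), and of 14 signalling genes 3 did (21.4%, interval 4.66 to 50.8%). The background, 22.5% of all protein-coding genes, lies inside both intervals and close to the signalling share. In replicate 1 alone both shares were 14.3% (background 6.67%). For domains the order was the other way round. There were 4 signalling genes whole inside a domain (28.6%, interval 8.39 to 58.1%) and 3 cytokine or receptor genes (14.3%, interval 3.05 to 36.3%), against a background of 3.98%. The 2 groups' intervals overlap in both comparisons, and the groups are too small for a difference of this size to stand apart from counting error. Of the 11 targets and effectors, 4 were at an anchor (36.4%, background 22.5%) and 1 was in a domain (9.09%, background 3.98%).

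Promoter sequences from RefSeq (GRCm38.p6) were at hand for 39 of the 46 genes. They are shown for 4 genes whose starts differ in how the loops meet them. The starts of Nfkbia, Il6 and Il1a lay inside an anchor, while that of Rel lay between anchors. Each line gives the 250 bases before the start, 5′ to 3′ on the gene's strand, and capitals mark matches to the NF-kB consensus or to the AP-1 motif TGANTCA.
Nfkbia, chr12:55492648-55492897, minus strand: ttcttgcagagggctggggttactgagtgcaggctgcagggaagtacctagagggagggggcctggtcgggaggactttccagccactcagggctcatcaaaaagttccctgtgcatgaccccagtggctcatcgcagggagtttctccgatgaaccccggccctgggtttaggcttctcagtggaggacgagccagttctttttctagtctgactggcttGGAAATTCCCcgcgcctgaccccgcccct
Il6, chr5:30012864-30013113, plus strand: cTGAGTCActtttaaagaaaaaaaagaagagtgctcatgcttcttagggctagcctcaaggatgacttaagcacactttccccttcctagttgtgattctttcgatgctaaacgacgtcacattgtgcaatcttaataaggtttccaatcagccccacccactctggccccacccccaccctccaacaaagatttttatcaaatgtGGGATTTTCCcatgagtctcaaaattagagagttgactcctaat
Il1a, chr2:129309973-129310222, minus strand: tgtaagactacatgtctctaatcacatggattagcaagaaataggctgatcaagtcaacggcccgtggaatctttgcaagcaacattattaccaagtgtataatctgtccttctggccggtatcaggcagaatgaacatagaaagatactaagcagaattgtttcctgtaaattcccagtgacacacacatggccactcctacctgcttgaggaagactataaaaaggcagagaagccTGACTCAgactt
Rel, chr11:23770970-23771219, minus strand: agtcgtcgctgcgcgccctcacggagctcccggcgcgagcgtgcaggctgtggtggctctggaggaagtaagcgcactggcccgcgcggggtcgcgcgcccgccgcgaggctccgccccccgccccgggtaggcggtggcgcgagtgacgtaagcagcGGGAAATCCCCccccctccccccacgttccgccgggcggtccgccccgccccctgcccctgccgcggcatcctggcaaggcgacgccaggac
Counted from the start, the NF-kB match began at position -29 in Nfkbia, at -44 in Il6 and at -92 in Rel, where matches of both strands overlap. Il6 also held AP-1 letters near the far end of its line, and Il1a at position -12.

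Over windows from 250 bases before to 50 after the start, searched on both strands, the NF-kB consensus was found in 12 of the 39 genes, or 30.8%, against 5.6% of 17274 protein-coding genes with a window. These were Bcl3, Ccrl2, Fos, Ier3, Il1r1, Il6, Nfkb2, Nfkbia, Nfkbie, Nlrp3, Rel and Tlr2. Many genes of the list are known as NF-kB targets, so their promoters are not independent of why they were listed. The AP-1 motif was found in 6 of 39 genes (15.4%, against 8.19%). The ETS core CGGAAG was found in 8 (20.5%, against 23.8%) and the CTCF core CCACNAGG in 3 (7.69%, against 5.87%). A match is a run of letters and not evidence of binding, and matching CTCF letters were not searched at the anchors themselves.

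All 7 genes of the cytokine group, which includes the alarmin genes S100a8 and S100a9, were at an anchor or enclosed by a loop (interval 59 to 100%, background 42.9%). The interval treats them as independent, although Il1a and Il1b shared a loop, as did S100a8 and S100a9. In replicate 1 only Il18, Il1a and Il1b were at an anchor or enclosed. Il6, the gene of the fever and acute-phase cytokine interleukin 6, lay whole inside an anchor in replicate 2 only. That anchor, 30000001 to 30024999 on chromosome 5, was joined over 175 kb to 29825001 to 29849999, where no protein-coding gene ends. The loop carried the authors' value n of 110, higher than in 93.6% of 25 kb loops of that replicate when ties are averaged. In replicate 1 the nearest anchor lay 480 kb from Il6. The tag n is not defined in the files and is used only to rank loops of equal anchor width within a replicate. These ranks take no account of span, so short and long loops were ranked together, and a percentile is not a measure of loop strength.

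Il18, whose cytokine is released by inflammasome cleavage, was the single cytokine gene at an anchor of a loop found in both replicates. In replicate 1 its far end lay in 50580001 to 50589999 on chromosome 9, joined over 50 kb to an anchor with an end of Bco2. The n of that loop was at percentile 34.4 of 10 kb loops. In replicate 2 the matching loop of 55 kb enclosed the gene, with the nearer anchor 8.16 kb beyond it. The right anchors of the matched loops were thus different bins, and the far end of Il18 lay in that of replicate 1 only.

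Il1a and Il1b, neighbouring genes of the 2 interleukin 1 cytokines, shared their loops. In replicate 1 a loop of 175 kb from 129250001 on chromosome 2 enclosed both, and its left anchor held an end of Ckap2l. In replicate 2 a loop of 100 kb had its left anchor, 129300001 to 129309999, inside the body of Il1a and enclosed Il1b. The RefSeq start of Il1a, whose sequence is printed above, lay inside that anchor, although its annotated right end was 0.187 kb outside. Neither loop had a partner in the other replicate.

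The remaining cytokine genes were enclosed in replicate 2 alone. Tnf, on chromosome 17, was enclosed by a loop of 55 kb whose anchors held ends of Aif1 and Atp6v1g2, with n at 33, in the top few percent of 5 kb loops (percentile 97.4). S100a8 and S100a9, which encode the 2 chains of the neutrophil alarmin calprotectin, lay together inside a loop of 60 kb on chromosome 3. In replicate 1 the nearest anchors to these 3 genes were 824, 1169 and 1193 kb away.

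**Figure D2:**
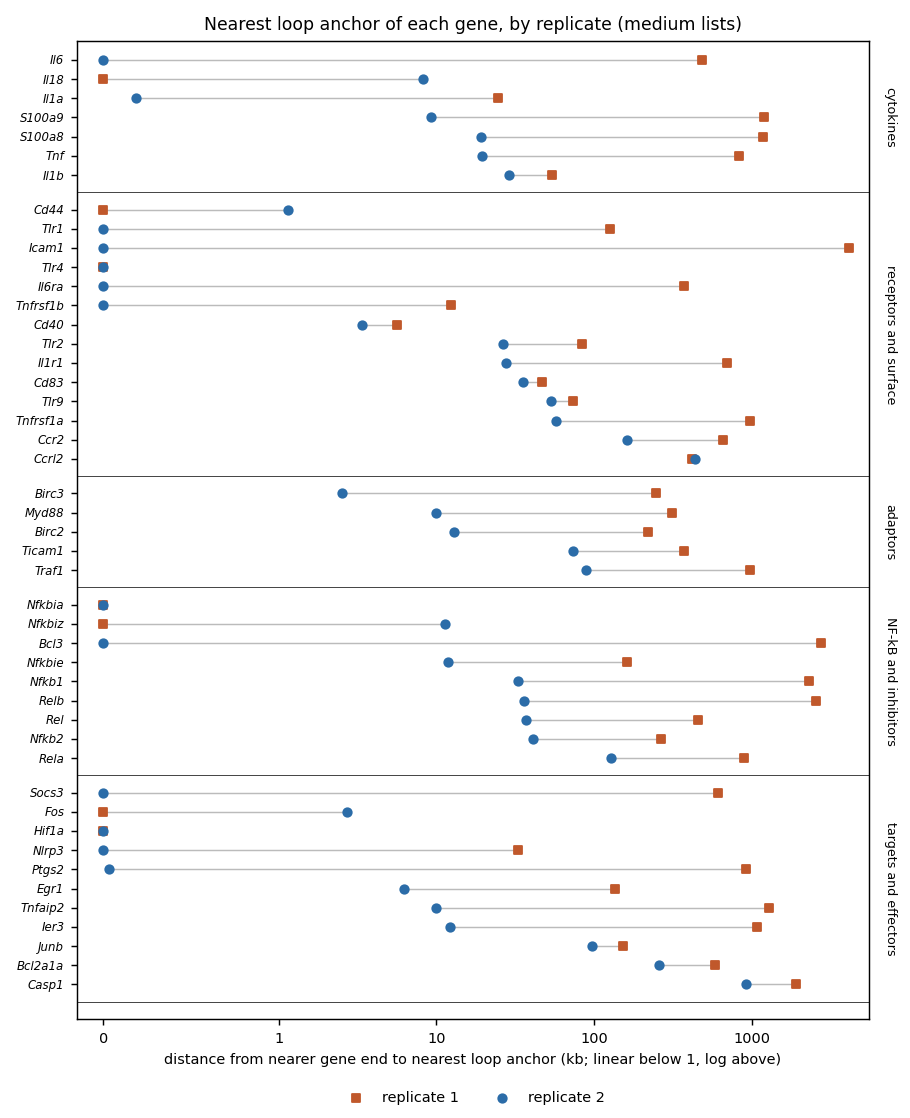
Distance in kb (linear below 1, log above) from the nearer end of each of the 46 genes to the nearest loop anchor, in replicate 1 (squares) and replicate 2 (circles), with a grey line joining the 2 values of a gene. A gene at 0 has an end in an anchor. Replicate 2 lies nearer for most genes, and Tlr4, Nfkbia and Hif1a are at 0 in both.

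Among the 14 receptor and surface genes 6 were at an anchor (42.9%, interval 17.7 to 71.1%, background 22.5%). Tlr4 had the longest loop of any member at an anchor, with the same anchors in both replicates. Tlr4, the gene of the lipopolysaccharide receptor, lay whole inside 66825001 to 66849999 on chromosome 4 in both replicates. Both joined it over 550 kb to 67375001 to 67399999, where no protein-coding gene ends. The value n was 23 in replicate 1 and 80 in replicate 2, or percentiles 17.2 and 75.2 of 25 kb loops. Replicate 2 also enclosed Tlr4 in loops of 150 and 1050 kb that share a left anchor. The other Toll-like receptor genes differed from it. Tlr1, for a sensor of bacterial lipopeptides, had a loop of 50 kb in replicate 2 only, with n at percentile 98.9 of 10 kb loops. It ran from an anchor holding the start of Tlr1 to an anchor on its left where no protein-coding gene ends. Tlr2 was enclosed in replicate 2 by loops of 90 and 325 kb. Tlr9, for an endosomal DNA sensor, was neither at an anchor nor enclosed, but lay in a domain.

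Cd44, which encodes the hyaluronan receptor of many blood cells, was at the foot of 1 loop and inside several. In replicate 1 its far end lay in 102800001 to 102824999 on chromosome 2, joined over 200 kb to an anchor with an end of Pdhx. The matching replicate 2 loop of 220 kb began 1.14 kb outside the gene and also ended at Pdhx. A loop of 400 kb in replicate 1 and loops of 340 and 380 kb in replicate 2 enclosed Cd44 from a left anchor at nearly the same place. None of these 3 had a partner within 20 kb. A replicate 2 domain of 335 kb held Cd44 and Pdhx and no other whole protein-coding gene.

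The TNF receptor genes stood apart from each other. Tnfrsf1b, the gene of TNF receptor 2, had its far end in 145210001 to 145214999 on chromosome 4 in replicate 2, joined over 75 kb to 145285001 to 145289999. In replicate 1 a loop of 100 kb enclosed it, with the left anchor at an end of Vps13d. A replicate 2 loop of 400 kb from an anchor at Dhrs3 enclosed it too, with n at percentile 0.486 of 10 kb loops. That loop ran between the edges of a 420 kb domain in which Dhrs3 and Tnfrsf1b were the only whole protein-coding genes. Tnfrsf1a, the gene of TNF receptor 1, was neither at an anchor nor enclosed nor in a domain, and its nearest anchors were 970 kb away in replicate 1 and 57.5 kb in replicate 2.

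Receptors of interleukins 1 and 6 lay at replicate 2 loops only. Il6ra, which encodes the ligand-binding chain of the interleukin 6 receptor, had its start in one anchor and its far end in the other anchor of a 50 kb loop on chromosome 3. It was the single member joined end to end by its own loop. Il1r1, for the signalling receptor of interleukin 1, had no end in an anchor. A loop of 250 kb enclosed it from an anchor with an end of Il1r2, the decoy receptor gene, and a 25 kb anchor inside the gene held the second of its RefSeq starts. From that anchor a loop of 100 kb with n of 114 reached an anchor with an end of Il1rl2. Icam1, an adhesion molecule gene, shared its anchor with Icam4 and Icam5 on chromosome 9, and the loop of 100 kb ended at Tyk2, a Janus kinase gene, and Cdc37, a kinase chaperone gene.

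The remaining receptor genes lay off the loops. Cd40, a costimulatory receptor gene, had anchors of both replicates close by, 5.62 kb away in replicate 1, at a 100 kb loop between Mmp9 and Ncoa5, and 3.35 kb away in replicate 2. Cd83 was 46.9 and 35.1 kb from an anchor in replicates 1 and 2. Ccr2, the receptor gene that guides monocytes out of the marrow, was 652 and 161 kb away, and Ccrl2 417 and 432 kb.

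None of the 5 adaptor genes was at an anchor, a share for which a count of 0 among 5 allows up to 52.2% (exact binomial upper bound). The background was 22.5%. Birc2 and Birc3, neighbouring genes of ubiquitin ligases that sit at TNF receptors, were both enclosed by replicate 2 loops of 180 and 290 kb on chromosome 9. Another loop of 140 kb enclosed Birc2 but not Birc3, and ended inside the body of Birc3. In replicate 1 the nearest anchor was 218 kb from Birc2 and 247 kb from Birc3. Myd88, the adaptor gene of most Toll-like receptors and of the interleukin 1 receptor, lay 9.98 kb from a replicate 2 anchor and 310 kb from a replicate 1 anchor. The nearer one belonged to a 90 kb loop between Acaa1a and Xylb on one side and Acvr2b and Exog on the other. Ticam1 lay 73.2 kb from the nearest anchor of replicate 2, with no loop or domain over it. Traf1 was reached by no loop but lay in a domain with 7 other whole genes.

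Of the 9 NF-kB genes, 3 were at an anchor (33.3%, interval 7.49 to 70.1%, background 22.5%), namely Nfkbia, Nfkbiz and Bcl3. These 3 encode inhibitors or nuclear regulators of NF-kB, but Nfkbie, another inhibitor gene, was at no anchor. Nfkbiz was at one in replicate 1 only and Bcl3 in replicate 2 only. Nfkbia, the gene of IkB-alpha, was at an anchor in both replicates. In replicate 1 the whole gene lay in 55475001 to 55499999 on chromosome 12, joined over 100 kb to an anchor with ends of Prorp and of Psma6, a proteasome subunit gene. In replicate 2 the narrower anchor, 55490001 to 55499999, held its start, whose sequence is printed above. The loop there spanned 120 kb and reached 55370001 to 55379999, where no protein-coding gene ends. The value n was 46 in each, at percentiles 91.6 and 93.3. A replicate 2 loop of 180 kb to the same side enclosed the gene, with its anchor 2.35 kb beyond it. All 3 loops ran to the left of Nfkbia, while the 525 kb replicate 2 domain around it reached 337 kb to its right.

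Nfkbiz, which encodes the nuclear inhibitor-like regulator IkB-zeta, was the only whole protein-coding gene in a replicate 2 domain of 380 kb on chromosome 16. A loop of 350 kb found in both replicates enclosed it, with a right anchor 11.0 kb beyond the gene in replicate 1 and 21.0 kb in replicate 2, and with n at percentiles 96.2 and 70.2. In replicate 1 a second loop of 125 kb had its right anchor at the right end of Nfkbiz and at Nxpe3, and had no partner in replicate 2. Bcl3, the gene of another nuclear IkB protein, had its far end in the anchors of 2 short replicate 2 loops, of 35 and 60 kb, and the nearest replicate 1 anchor was 2733 kb away.

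The 5 genes of the DNA-binding subunits had no end in an anchor. Nfkb1, the p105 and p50 gene, was enclosed in replicate 2 by loops of 350 and 450 kb, with n at percentiles 59.6 and 9.78. The gene lay in a domain of 340 kb with Cisd2, Ube2d3 and Manba. The 350 kb loop had both anchors at the edges of that domain. Rel, the c-Rel gene printed above, was enclosed in replicate 2 by loops of 175 and 270 kb. The first had n of 108, at percentile 93.0, and the second had n of 26, at percentile 35. Nfkb2, Rela and Relb were neither at an anchor nor enclosed, at 41.0, 127 and 35.6 kb from the nearest replicate 2 anchor and 263, 887 and 2531 kb from the nearest replicate 1 anchor. Nfkbie, an inhibitor gene outside these 5, was also not at an anchor or enclosed, and lay 11.8 kb from one in replicate 2.

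**Figure D3:**
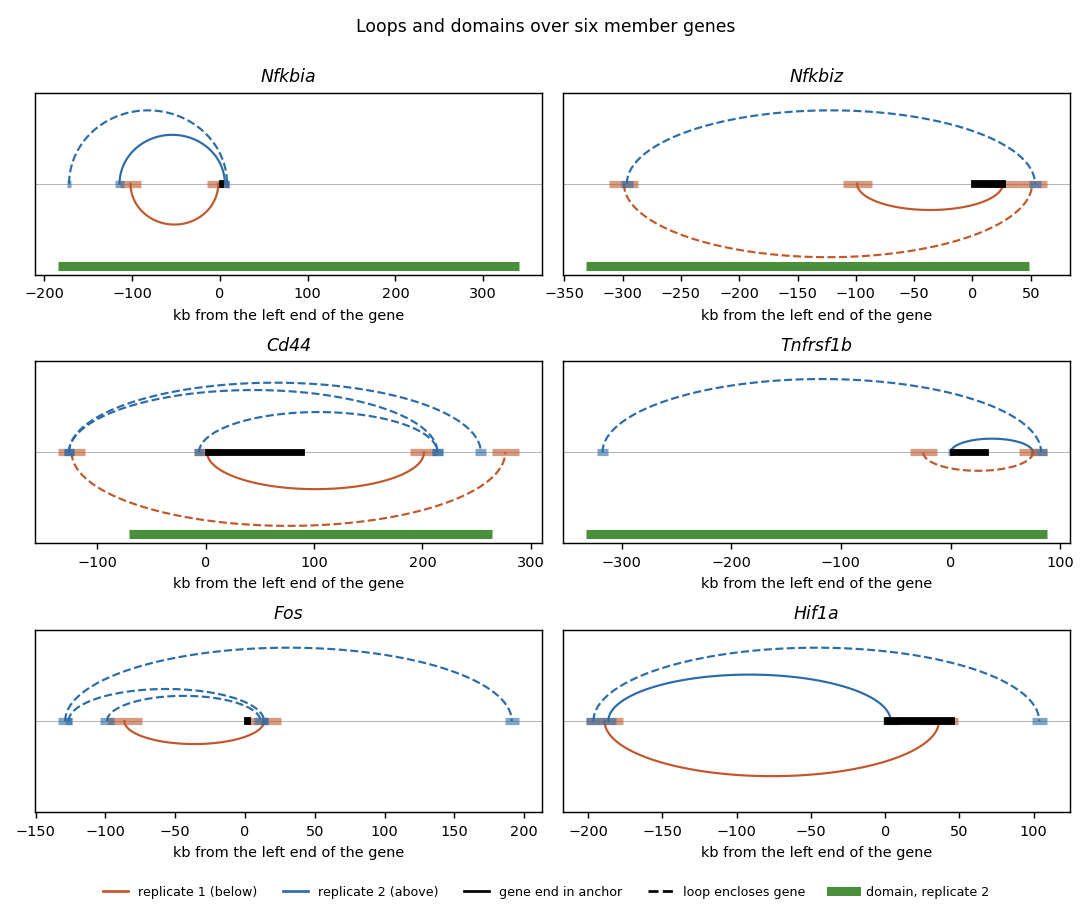
Loops over 6 members as arcs, replicate 2 above and replicate 1 below the line, against the distance in kb from the left end of the gene (black bar). Solid arcs have a gene end in an anchor, dashed arcs enclose the gene, pale bars are the anchors, and green bars are replicate 2 domains. Nfkbia, Nfkbiz, Cd44, Fos and Hif1a have solid arcs from replicate 1, and Nfkbiz also has a pair of dashed 350 kb arcs that mirror each other.

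Among the 11 targets and effectors 4 were at an anchor (36.4%, interval 10.9 to 69.2%, background 22.5%). Fos, an immediate early gene of the AP-1 factor, had its far end in 85475001 to 85499999 on chromosome 12 in replicate 1, joined over 100 kb to the left, and its start lay 1.11 kb outside that anchor. In replicate 2 the matching loop of 110 kb enclosed Fos, ended 2.73 kb beyond it and had an end of Tmed10 at its left anchor. Loops of 140 and 320 kb in replicate 2 enclosed Fos as well. Hif1a, the gene of an oxygen-sensing factor that NF-kB can induce, met a loop from the same left side in both replicates but at opposite ends. In replicate 1 its far end was joined over 225 kb to 73700001 to 73724999 on chromosome 12, and in replicate 2 its start was joined over 190 kb to 73710001 to 73719999. These loops did not match within 20 kb, since their right anchors lay farther apart, and they did match within 40 kb.

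Socs3, which encodes a brake on interleukin 6 signalling, had its RefSeq start and its far end in a replicate 2 anchor joined over 90 kb to an end of Tha1. The n of that loop was at percentile 27 of 10 kb loops. Nlrp3, the inflammasome sensor gene, had its far end in a 5 kb anchor of a 40 kb loop on chromosome 11 in replicate 2. Ptgs2, which encodes the prostaglandin enzyme COX-2, missed an anchor by 0.032 kb. That replicate 2 anchor, 150075001 to 150099999 on chromosome 1, was joined over 125 kb, with n of 100, to an anchor with an end of Pla2g4a, the gene of the phospholipase that releases the substrate of COX-2. A replicate 2 domain of 400 kb held Ptgs2 and Pla2g4a and no other whole protein-coding gene, and loops of 220, 345 and 420 kb enclosed Ptgs2. In replicate 1 the nearest anchor was 917 kb from Ptgs2. Tnfaip2 lay inside a loop of 40 kb in replicate 2, and Egr1, an immediate early factor gene, inside one of 45 kb. Ier3, Junb, Bcl2a1a and Casp1 were reached by none. Casp1, the inflammasome protease gene, lay farthest of all 46 from an anchor of replicate 2, at 919 kb. In replicate 1 it lay 1903 kb away, and Icam1 lay farthest, at 4096 kb. Bcl2a1a has close copies on the same chromosome, among which contacts may be hard to assign.

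**Figure D4:**
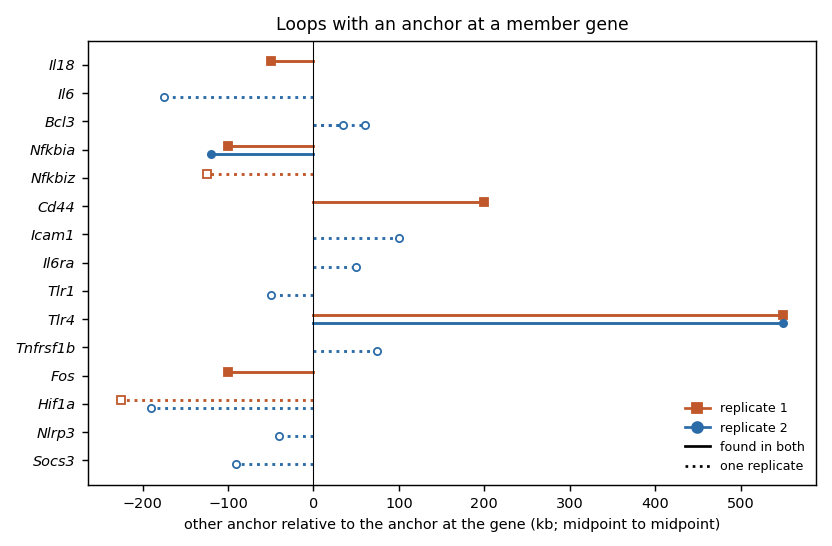
Position in kb of the other anchor, midpoint to midpoint, for each loop with an anchor at one of the 15 members, in replicate 1 (squares) and replicate 2 (circles). Filled symbols with solid lines are loops found in both replicates and open symbols with dotted lines are not, and Tlr4 reaches 550 kb in both.

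The 15 genes had 19 loops in all, 7 in replicate 1 and 12 in replicate 2. The median span was 125 kb in replicate 1 and 82.5 kb in replicate 2, against 150 kb for all loops of each list. The median percentile of n was 74.9 in replicate 1 and 62.4 in replicate 2, against 49.5 and 50.4 for all loops. For the loops enclosing a member it was 76.3 in replicate 1 (4 loops) and 51.9 in replicate 2 (33 loops). Of the 7 replicate 1 loops, 5 were found in replicate 2 (71.4%, interval 29.0 to 96.3%), against 80.6% of all loops. Of the 12 replicate 2 loops, 2 were found in replicate 1 (16.7%, interval 2.09 to 48.4%), against 18.2% of all. Both shares had intervals that include the value of the whole list. For all 7 genes at a replicate 1 anchor (interval 59 to 100%), replicate 2 listed a loop that either enclosed the gene or had an anchor at it, against 77.4% of the 1436 protein-coding genes at replicate 1 anchors. A gene end lay at each foot of 3 of the 7 replicate 1 loops (42.9%), against 32.5% of all its loops with a gene end. In replicate 2 this held for 3 of 12 (25%), against 27.9%.

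Which end of the gene met the anchor could be read for the 13 of these 15 genes with a RefSeq start. In 7 genes (53.8%) only the far end did, namely Il18, Cd44, Icam1, Tnfrsf1b, Bcl3, Fos and Nlrp3, in 1 gene only the start did, and in 5 both did. Among all 3789 protein-coding genes at anchors with a start, 33.1% had only the far end, 37.4% only the start and 27.0% both. With starts alone counted, 8 of 39 members were at an anchor (20.5%, interval 9.3 to 36.5%), against 14.9% of genes with a start. These 8 were Il6, Il1a, Tlr1, Il6ra, Il1r1, Nfkbia, Socs3 and Hif1a, of which Il1a and Il1r1 had no annotated end in an anchor. Anchors are 5 to 25 kb wide, so which end is inside can turn on a single bin, as for Fos.

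The median distance from a member to the nearest anchor of either list was 10.9 kb (range 0 to 919 kb), against 27.2 kb over all protein-coding genes. For replicate 2 alone it was 11.6 against 29.2 kb, and for replicate 1 alone 340 against 387 kb. By role it was 9.28 kb for cytokines, 14.8 kb for receptors, 12.9 kb for adaptors, 33.0 kb for NF-kB genes and 6.21 kb for targets. The ranges of the 5 roles overlap. Within 10 kb of an anchor lay 23 members, or 50%, against 36.5% of all genes.

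**Figure D5:**
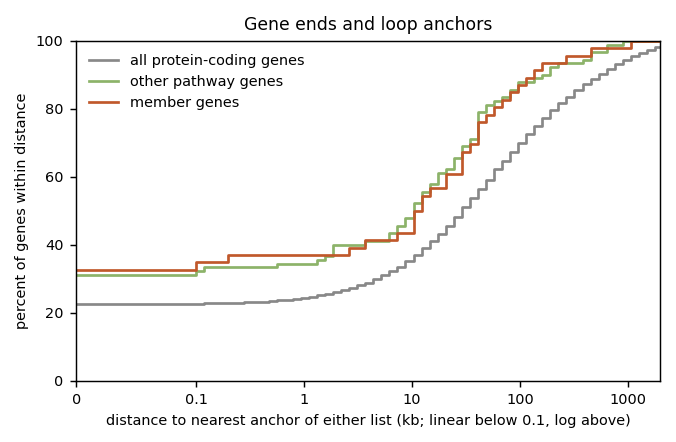
Percent of genes whose nearer end lies within a given distance in kb (linear below 0.1, log above) of an anchor of either medium list, for all protein-coding genes, the members and 90 other pathway genes. At 10 kb the members stand at 50% and all genes at 36.5%, and the curve of the other pathway genes runs close to that of the members.

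The 8 domains with a member were 315 to 525 kb long, with a median of 360 kb, against 365 kb for all 339 replicate 2 domains, which covered 5.07% of the chromosome length between the first and last genes. They held Cd44, Tlr9, Tnfrsf1b, Traf1, Nfkb1, Nfkbia, Nfkbiz and Ptgs2. The median number of whole protein-coding genes was 3 in these domains and 2 in all. It ranged from 1, for Nfkbiz, to 13 in the domain of Tlr9, which also held Dusp7, Alas1 and Rpl29. A loop ran between both edges, within 25 kb, in 2 of the 8 (Tnfrsf1b and Nfkb1, 25%) and in 160 of the 339 (47.2%).

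A list of 90 other genes of the pathway gave a like share at anchors and a lower one in domains. Of these, 28 had an end in an anchor (31.1%, interval 21.8 to 41.7%, background 22.5%), 32 were enclosed (35.6%, interval 25.7 to 46.3%, background 27.0%) and 5 lay whole inside a domain (5.56%, interval 1.83 to 12.5%, background 3.98%). The last 5 were Fosl2, Jun, Sele, Tab2 and Ticam2. The interval of the domain share overlaps that of the 46 members, which does not settle whether the shares differ, and the difference was not tested. At anchors of loops found in both replicates there were 12 (13.3%, interval 7.08 to 22.1%, background 5.83%). Ligand and receptor genes among them were Lif, Il6st, which encodes the signal-transducing chain shared by interleukin 6 family receptors, Tlr8 and Cd80. Intracellular signalling genes were Traf6, Ripk1, Map3k8 and Sharpin, and transcription factor genes were Jun, Cebpb, Cebpd and Klf6. Jun had the same anchors in both replicates, 95050001 to 95059999 and 95100001 to 95109999 on chromosome 4. Il6st was joined over 200 kb to an anchor without a gene end in both replicates. Among the genes at anchors of unmatched loops alone, and over the 25 kb anchors of replicate 2, the highest n belonged to Ripk2 (112), Tab2 (100), Socs1 (85), Casp8 (84) and Tnip2 (77). These are percentiles 94.2, 89.9, 79.3, 78.7 and 71.7 of such loops. On narrower anchors of replicate 2, Fosb reached percentile 97.4, Pycard 96.2 and Irak2 91.8 of loops of their own width.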

How the data were processed

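Hi-C was run on HPC5 cells fixed with formaldehyde and cut with the Arima kit, per the labels' protocols. HiC-Pro 2.11.1 and mm10 are named in the submitters' processing notes. Which program called the loops and which called the domains is not given in the sources used here. The authors deposited, per replicate, loop lists at a high and a medium setting and a domain list with 5000 bp bins. The tags n and qBL and the domain score are undefined. Positions count from 1, so each domain start was shifted up by a base. Contact matrices were not analysed here.

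Gene ends were read from RefSeq's GRCm38.p6 annotation table, which shares its coordinates with mm10, without 345 scaffold genes (110 protein-coding), and gene starts and promoters from the RefSeq promoter table, where Cd40, Cd83, Tlr4, Nfkb1, Nfkbiz, Relb and Egr1 have no entry. Positions were joined with Python 3.11.15, pandas 2.3.3 and NumPy 2.4.6, and intervals came from SciPy 1.17.1. The scripts were tested on simulated data. No test between groups was run, since there is 1 group. The members and lists were chosen with earlier results of these data known. Members were all named, and pathway genes where at a loop of both replicates or among the 5 highest of the others in n. The pathway genes named for their domain or for a percentile of n, and the genes listed with a motif, fall outside that rule and were named after their values were seen.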

Additional observations from a re-analysis of the deposited data

How the results depend on the processing

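No paired analysis was possible because the 2 samples form 1 group. The count of 15 members at anchors was 9 under the high setting, which is the medium list without its 25 kb anchors, 8 with gene starts alone, 5 at loops found in both replicates and 23 with ends within 10 kb. The backgrounds of these settings were 9.53, 14.9, 5.83 and 36.5%, in place of 22.5%. The count was 7 and 11 without one replicate, with backgrounds of 6.67 and 19.8%. The 28 pathway genes became 14, 15, 12 and 47 under the same settings and 13 and 24 without one replicate, with the same backgrounds. The share of members over the background share was 1.45, and 1.21 to 2.28 over all settings. For pathway genes it was 1.38, and 2.29 at loops found in both replicates, 1.86 against all annotated genes, and 1.34 to 2.16 without one replicate. Cytokines and receptors exceeded signalling parts at anchors by 16.7 percentage points, by 4.76 under the high setting, and by 0 to 14.3 without one replicate. The largest gap over all settings was 25.4 points, with 1 member per 500 kb. Enclosed members numbered 23 (background 27.0%), and 5 and 22 without one replicate (backgrounds 5.92 and 26.6%). Under the high setting 20 were enclosed (43.5%, background 13.5%), and with loop spans up to 500 kb 23 were (background 21.7%). Members in domains numbered 8 (background 3.98%), and 0 and 8 without one replicate (backgrounds 0.0418 and 3.98%). With a tolerance of 10 kb, 2 loops of replicate 1 and 1 of replicate 2 matched in place of 5 and 2. These were 28.6% of member loops in replicate 1, against 60.5% of all loops, and 8.33% in replicate 2, against 13.5%. With 40 kb, 6 of replicate 1 (85.7%, against 92.5%) and 4 of replicate 2 (33.3%, against 22%) did. The median distance of 10.9 kb was 22.8 kb under the high setting and 11.6 to 340 kb without one replicate. For enclosed members and domains, the following settings were chosen after seeing the data. Keeping 1 member per 500 kb left 42 genes, 20 enclosed (47.6%, background 27.0%) and 8 in domains (19%, background 3.98%). For all 46 members, with olfactory and vomeronasal genes left out, the background was 27.1% enclosed and 4.2% in domains. The depth behind the lists is unknown.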
